A study of Homo sapiens with 27 samples.

Results

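SR proteins are RNA-binding splicing factors named for their serine- and arginine-rich tails, and 10 of their genes are described here: SRSF1, SRSF2, SRSF3, SRSF4, SRSF5, SRSF6, SRSF7, SRSF10, SRSF11 and TRA2A. The genes were taken by name, as splicing factors known to control the amount of their own mRNA. No measured value entered that rule, but the choice was made with earlier results of these data known. All 10 were among the 19522 genes listed in all 4 count tables of the series. Ends of polyadenylated transcripts were counted by poly(A)-ClickSeq, which reads from the transcript into its poly(A) tail, in 27 libraries of total RNA. The libraries came from the prostate cancer cell lines LNCaP, which is hormone-sensitive, and LNCaP95 and 22Rv1, which are hormone-insensitive. In each line, 3 libraries carried a control shRNA (CTRL sh), 3 carried CPSF1 sh1 and 3 carried CPSF1 sh2, the last 2 being shRNAs against CPSF1. All cells, controls included, were transduced with lentivirus, selected in puromycin, with no single-cell cloning stated, and grown for 72 h. LNCaP and 22Rv1 were kept in RPMI medium with fetal bovine serum, and LNCaP95 in phenol red-free RPMI with serum, so line and medium cannot be told apart in comparisons of LNCaP95 with the other lines.

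SR proteins bind exons, recruit the spliceosome to nearby splice sites and accompany the mRNA through export and translation. Several of them limit their own amount: when the protein is abundant, it drives its own transcript toward a poison exon, a retained intron or another last exon, and the product is kept in the nucleus or removed by nonsense-mediated decay. CPSF1 is the scaffold of CPSF, the complex that recognises the poly(A) signal and directs cleavage downstream of it. In the tables, an end was assigned to the 3′ UTR (extended by 300 bases), to the introns, to the coding sequence (CDS), or to the 10 kb beyond the gene. The intron region is the gene without its CDS and 3′ UTR, so that it also holds 5′ UTRs. Levels are given as CPM, which are read counts scaled to a common total of the same table, and a share is the percentage of a gene's own reads over the 4 tables. A 3′ UTR region and the CDS of the same gene can overlap where transcripts differ, and a read there enters both tables: the overlap took 76.1% of the CDS bases of SRSF1 and none of those of SRSF2.

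The sequences at the annotated 3′ ends are shown for the genes whose 10 kb counts moved in at least 2 lines, because reads beyond these ends carry most of the results. Each run is 30 bases on the strand of the gene, from the GRCh37 (hg19) genome. Capitals mark the match to AATAAA or ATTAAA, whose use as a poly(A) signal was not tested. For SRSF7 (chr2:38970743-38970772, minus strand), SRSF4 (chr1:29474256-29474285, minus strand), SRSF6 (chr20:42092216-42092245, plus strand), SRSF2 (chr17:74730207-74730236, minus strand) and SRSF1 (chr17:56080722-56080751, minus strand), the runs read as follows.
SRSF7: caacAATAAAtctgcagagattgaacaaat
SRSF4: tttgAATAAAgactatttttgcttgacaaa
SRSF6: aaatctcAATAAAatacttactgagggaaa
SRSF2: tttaATTAAAacattttcttggtgttagct
SRSF1: tgttagcaaATTAAAagttcttaaaaggca
SRSF7, SRSF4 and SRSF6 hold AATAAA, whereas SRSF1 and SRSF2 hold the variant ATTAAA. The search was for AATAAA or ATTAAA on the strand of the gene in the last 40 bases of the annotated 3′ UTR, and 9 of the 10 genes held one there, against 71.1% of 19524 genes. SRSF3 held neither in that window. In the 10 kb region, AATAAA occurred 4 times for SRSF7, 8 times for SRSF4, 13 times for SRSF6, 5 times for SRSF3, 4 times for SRSF2 and 10 times for SRSF1. The median over 15705 genes with a whole 10 kb region was 9, and 97.5% of those regions held at least 1. The SRSF2 region has only 8932 bases, so it was not among these whole regions.

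Depth and identity were checked first. The reads of a library summed over the 4 tables to between 3452413 and 12425417, and the shallowest library was the 22Rv1 CTRL sh replicate 1, which also held the lowest 3′ UTR CPM of its group for 8 of the 10 genes. CPSF1 3′ UTR counts lay at 120.5 to 155 CPM in the LNCaP controls and at 52.5 to 87.8 CPM in the knockdown libraries, the groups did not overlap in LNCaP95 or 22Rv1 either, and CPSF1 fell by 1.19 on the log2 scale in LNCaP, by 1.05 in LNCaP95 and by 0.73 in 22Rv1 (adjusted p = 8.31e-05, 0.000301 and 0.0164). The luminal prostate markers were above 2 CPM in 8 of 8 cases in every line, with summed levels of 3969 to 5595, 5978 to 9201 and 2970 to 3842 CPM. Of 8 markers of blood, fibroblast, endothelial and basal cells, 7 were listed among the genes counted. Of these, 1 (COL1A1) was above 2 CPM, and the summed level was 5.79 to 43.2 CPM over all libraries. PTPRC and KRT5 were at 0 in LNCaP and LNCaP95, TP63 in LNCaP, and CD3E and VWF in 22Rv1. In these bulk samples, fewer cells of a type and less RNA per cell cannot be told apart.

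**Figure D1:**
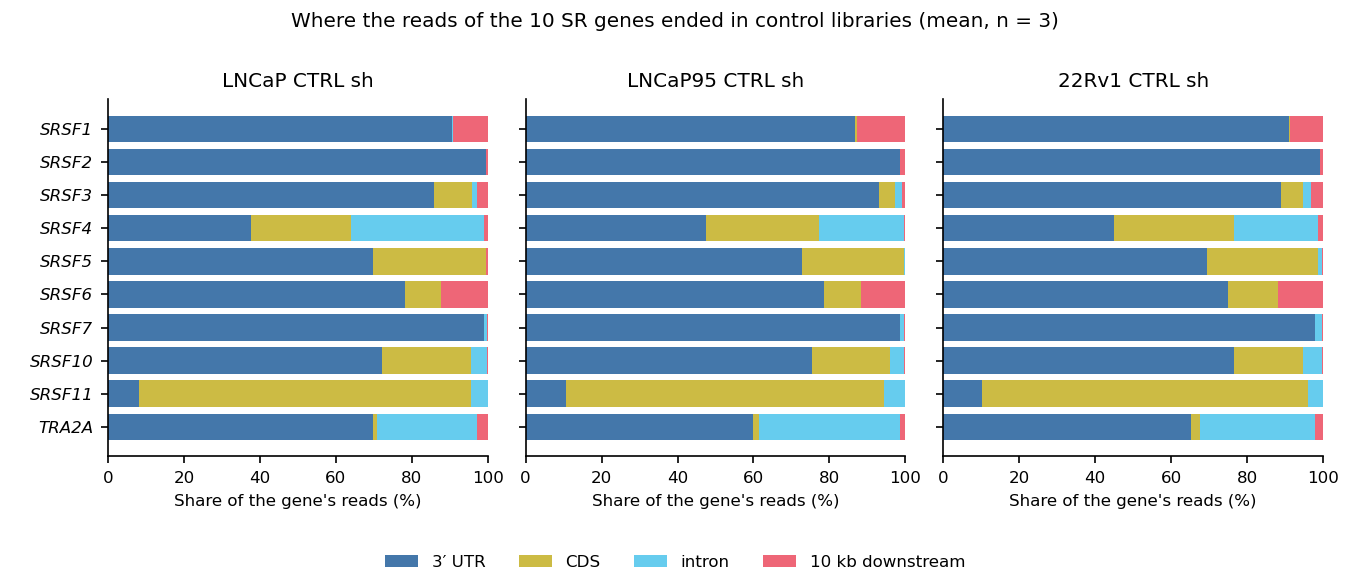
Share of each gene's poly(A)-ClickSeq reads in the 3′ UTR, intron, CDS and 10 kb downstream tables, as the mean percentage over the 3 CTRL sh libraries of each line. SRSF11 stands apart with over 80% of its reads in the CDS, and SRSF4 and TRA2A hold the largest intron shares of the 10 genes in every line.

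The genes fell into distinct patterns by where their transcripts ended in control cells. SRSF2 and SRSF7 ended almost wholly in the 3′ UTR, SRSF4 and TRA2A had a large intron share, SRSF11 was dominated by the CDS, and SRSF6 and SRSF1 had the largest shares beyond the gene. For SRSF2, which acts in early spliceosome assembly, the 3′ UTR took 99.5%, 98.6% and 99.1% of reads in LNCaP, LNCaP95 and 22Rv1, and for SRSF7, a partner of mRNA export, it took 98.9%, 98.5% and 97.9%. The median over genes with a mean of at least 100 reads was 58.1% in LNCaP, and the 3′ UTR share of SRSF2 there exceeded that of 96.4% of 8697 genes. SRSF3, a close relative of SRSF7, held 85.8%, 92.9% and 89.0% of its reads in the 3′ UTR.

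SRSF11, an SR-related protein that associates with the early spliceosome, was the exception among the 10 genes. Its CDS took 87.4% ± 0.456 of its reads in LNCaP, 83.8% ± 0.378 in LNCaP95 and 85.8% ± 3.6 in 22Rv1 (SD, n = 3 each). This CDS share held rank 69 among 8697 genes in LNCaP, rank 88 among 9147 in LNCaP95 and rank 74 among 8082 in 22Rv1, while the median gene had 0.53%, 0.46% and 0.56%. Each library held between 2957 and 12944 SRSF11 reads in the CDS, and 166490 in all. A read whose tail comes from A-rich sequence inside a transcript would be counted as an end in the same way, and the DPAC site caller treats more than 12 A in the 20 bases downstream as such a place. The SRSF11 CDS held 69 positions of that kind, a number reached or passed by 236 of 20232 genes. In SRSF2, 0 CDS reads were found in the 27 libraries, which allows up to 0.0924 CPM. SRSF10 had 11 such positions in its CDS, SRSF5 had 8, TRA2A had 5, SRSF3 and SRSF4 had 1 each, and the other 4 genes had 0. The part of A-rich sequence in the CDS counts was not tested.

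SRSF4 and TRA2A were the genes with sizeable intron shares. For SRSF4, a large SR protein with a pair of RNA recognition domains, introns took 35.0% ± 0.948 of reads in LNCaP, 22.3% ± 2.50 in LNCaP95 and 22.3% ± 5.08 in 22Rv1. Its CDS took another 26.5%, 29.8% and 31.4%, and 63.2% of the CDS bases of SRSF4 were shared with its 3′ UTR region. For TRA2A, a relative of the fly splicing regulator transformer-2 that binds exonic enhancers, introns took 26.2% ± 2.93 in LNCaP, 37.1% ± 5.37 in LNCaP95 and 30.3% ± 11.3 in 22Rv1. Most of the spread in 22Rv1 lay with replicate 1, at 43.2%, against 22.2% and 25.5% in the others. Neither intron share was high among all genes, since that of SRSF4 exceeded 66.5% and that of TRA2A 59.1% of genes in LNCaP. SRSF11 introns also gave 8312 reads over the 27 libraries, next to 9260 for SRSF4 and 7860 for TRA2A. The intron regions of SRSF4, TRA2A and SRSF11 held 385, 336 and 347 positions with more than 12 A in the 20 bases downstream. The median gene had 206, and SRSF5, with 132 intron reads, had 481. The part of A-rich sequence in the intron counts, before or after knockdown, was not tested. The introns of the other members gave few reads: SRSF10 had 722 reads, SRSF3 451, SRSF7 192, SRSF5 132, SRSF1 28 and SRSF6 1. SRSF2 had 0 of the intron reads of the 27 libraries, which allows a level of up to 0.0557 CPM over all of them together. The intron regions differed in length, with 363 bases for SRSF1, 553 for SRSF2, 1026 for SRSF6, 3216 for SRSF7 and 5336 for SRSF3. Those of SRSF4, TRA2A and SRSF11 had 29939, 24999 and 40629 bases, and that of SRSF5 had 42087. The part of region length in these counts and in the 3′ UTR shares was not tested.

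The CDS held 29.7%, 26.9% and 29.4% of the reads of SRSF5 and 23.5%, 20.3% and 18.1% of those of SRSF10, a protein that represses splicing when dephosphorylated. Part of these reads could also lie in a 3′ UTR region, because 66% of the CDS bases of SRSF5 and 41.1% of those of SRSF10 were shared with it, and the share of reads in the overlap was not measured. SRSF10 is also listed on an unplaced contig, so its reads may be split between near-identical copies. Beyond the gene, SRSF6 had 12.4% ± 2.87, 11.6% ± 3.69 and 11.9% ± 1.73 of its reads, and SRSF1 had 9.06% ± 2.04, 12.8% ± 2.68 and 8.67% ± 1.28. In LNCaP these exceeded the 10 kb shares of 90.1% and 86.9% of genes. A newer Gencode annotation places exons of SRSF1 itself on 2142 bases and of a long noncoding RNA on 1789 bases of the SRSF1 10 kb region (chr17:56070422-56080421), and exons of SRSF6 itself on 530 bases and a small nuclear RNA pseudogene on 107 bases of the SRSF6 region (chr20:42092545-42102544). Ends of those longer transcripts would be counted as 10 kb ends.

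**Figure D2:**
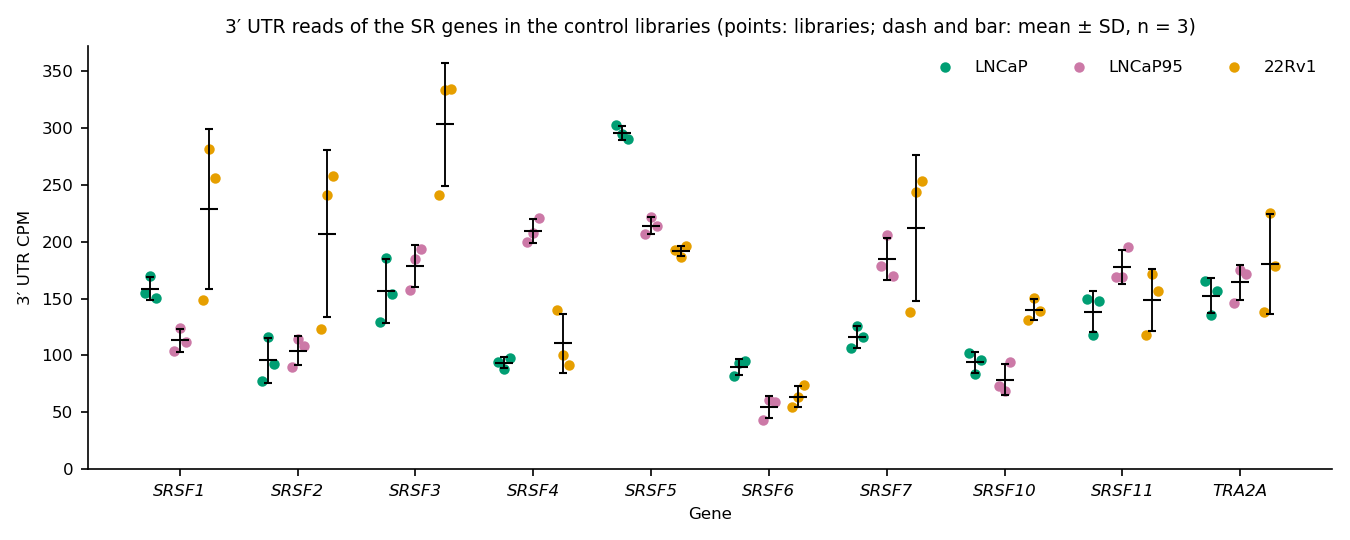
3′ UTR level of each SR gene in CPM in the CTRL sh libraries of the 3 lines, with points for libraries and lines for the mean ± SD (n = 3). SRSF2, SRSF3 and SRSF10 were highest in 22Rv1, SRSF4 in LNCaP95, and SRSF5 and SRSF6 in LNCaP.

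Between the control cells of the 3 lines, the 3′ UTR levels of 8 genes differed in at least 1 pair, and those of SRSF11 and TRA2A passed the test in none. Of the 10 genes, 1 was higher and 4 were lower in LNCaP95 than in LNCaP, 4 were higher and 2 lower in 22Rv1 than in LNCaP, and 4 were higher and 1 lower in 22Rv1 than in LNCaP95. Over all 11501 genes tested, 39.3%, 47.2% and 54.6% differed in these pairs, so that the counts among the SR genes were near the background. SRSF4 was at 94.6, 88.2 and 97.8 CPM in LNCaP, at 200, 208 and 221 in LNCaP95 and at 140.2, 100.3 and 91.7 in 22Rv1. Its LNCaP95 libraries were all above those of the other lines, with a log2 difference of 0.94 (SE 0.18, adjusted p = 0.000531) from LNCaP and of -0.82 (SE 0.18, adjusted p = 0.001) for 22Rv1 against LNCaP95. LNCaP and 22Rv1 did not differ beyond their spread.

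SRSF3 was at 129, 186 and 154 CPM in LNCaP, at 158, 185 and 194 in LNCaP95 and at 241, 334 and 335 in 22Rv1. 22Rv1 stood above both other lines, by 0.84 (adjusted p = 0.000321) and 0.86 (adjusted p = 0.00018) on the log2 scale, and LNCaP and LNCaP95 overlapped. SRSF2 had the same order with wider spread, at 77.5, 117 and 92.6 CPM in LNCaP, at 90, 114 and 108 CPM in LNCaP95 and at 123, 241 and 258 CPM in 22Rv1. SRSF10 was lowest in LNCaP95 (72.8, 68.6 and 94.5 CPM) and highest in 22Rv1 (132, 150.1 and 139 CPM), a log2 difference of 0.93 (adjusted p = 0.000182). For SRSF1, the founding member of the family, 22Rv1 exceeded LNCaP95 by 1.11 (adjusted p = 4.68e-05), and LNCaP95 was below LNCaP by a log2 difference of -0.71 (adjusted p = 0.00433). SRSF7 passed the test in 1 pair, 22Rv1 over LNCaP, with a log2 difference of 0.75 (adjusted p = 0.00221).

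SRSF5 and SRSF6 showed the opposite order, with LNCaP highest. SRSF5 lay at 302, 295 and 290.3 CPM in LNCaP, at 207, 222 and 214 in LNCaP95 and at 192, 187 and 196 in 22Rv1. The log2 differences from LNCaP were -0.69 for LNCaP95 (adjusted p = 0.000556) and -0.74 for 22Rv1 (adjusted p = 0.000205), and LNCaP95 and 22Rv1 did not pass the test. The corresponding differences for SRSF6 were -0.96 (adjusted p = 0.000235) and -0.61 (adjusted p = 0.00656). These calls did not rest on any single control library, except those of SRSF10 in the 2 pairs with LNCaP, which were each lost in 4 of 9 fits with a library left out.

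Outside the 3′ UTR, TRA2A introns differed between lines. Intron counts were 105, 131 and 107 CPM in the LNCaP controls, 309, 227 and 223 in LNCaP95, and 219, 173 and 159 in 22Rv1. LNCaP was lowest, with no overlap, and the log2 difference was 0.83 for LNCaP95 (adjusted p = 0.000141) and 0.44 for 22Rv1 (adjusted p = 0.0371). The second of these was lost in 6 of 9 fits with a library left out, 22Rv1 replicate 1 included. The ratio of intron to 3′ UTR ends of TRA2A was also higher in LNCaP95 than in LNCaP, by 0.94 on the log2 scale (SE 0.26, adjusted p = 0.028), where 7.23% of all genes differed, and that call was lost without LNCaP replicate 1 or 3 or LNCaP95 replicate 1. SRSF5 passed the same ratio test for 22Rv1 against LNCaP (2.96, adjusted p = 0.036, background 8.49%, and 18.5% between 22Rv1 and LNCaP95) on 0 to 9 intron reads a library, and that call was lost without LNCaP replicate 1 or 2, by DESeq2 (adjusted p = 0.16) and with summed sizes (0.0957). SRSF4 introns were lower in 22Rv1 than in LNCaP95 (-0.91, adjusted p = 3.42e-05) and LNCaP (-0.75, adjusted p = 0.000621). SRSF3 introns were higher in 22Rv1 than in LNCaP (1.65, adjusted p = 0.00513), on 18 to 22 reads against 8 to 10 reads a library. Against LNCaP95, 22Rv1 also had lower SRSF11 introns (-0.64, adjusted p = 0.00173) and higher SRSF10 introns (1.18, adjusted p = 0.0272). The SRSF10 call was lost in 3 of 9 fits with a library left out. In the intron table, 24.2%, 31% and 38.3% of all genes differed between LNCaP95 and LNCaP, 22Rv1 and LNCaP, and 22Rv1 and LNCaP95. Of 7 SR genes tested, 1 was higher and 0 lower, 2 higher and 1 lower, and 1 higher and 2 lower in these pairs. The ratios of CDS to 3′ UTR ends and of 10 kb to 3′ UTR ends passed the test for 0 of the SR genes in any pair of lines with edgeR, and also with DESeq2. At an unadjusted p under 0.05, the CDS ratio counted 2, 2 and 0 genes and the 10 kb ratio 3, 0 and 4. Over all genes, 0.41%, 0.346% and 1.27% were called for the CDS ratio and 2.94%, 6.22% and 12.7% for the 10 kb ratio. The CDS counts themselves followed the 3′ UTR counts for SRSF4, with 259, 237 and 249 CPM in LNCaP, next to 497, 539 and 529 CPM in LNCaP95 and 345, 253 and 199 CPM in 22Rv1, a log2 difference of 1.03 for LNCaP95 against LNCaP (adjusted p = 1.23e-05). SRSF5 was lower in LNCaP95 (-0.63, adjusted p = 0.00218) and in 22Rv1 (-0.71, adjusted p = 0.000544) than in LNCaP, as in its 3′ UTR. Calls in the CDS without one in the 3′ UTR were also found. SRSF3 CDS counts were lower in LNCaP95 than in LNCaP (-1.04, adjusted p = 0.00653) with a 3′ UTR difference of -0.03 (adjusted p = 0.913), and TRA2A CDS counts were higher in 22Rv1 than in LNCaP (1.48, adjusted p = 0.0216) with a 3′ UTR difference of 0.12 (adjusted p = 0.585). The TRA2A call was lost without replicate 3 of LNCaP or of 22Rv1. The CDS calls were 1 higher and 2 lower, 1 higher and 1 lower, and 1 higher and 1 lower in the 3 pairs, of 7 genes tested, and the background was 24%, 28.6% and 35.8%.

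**Figure D3:**
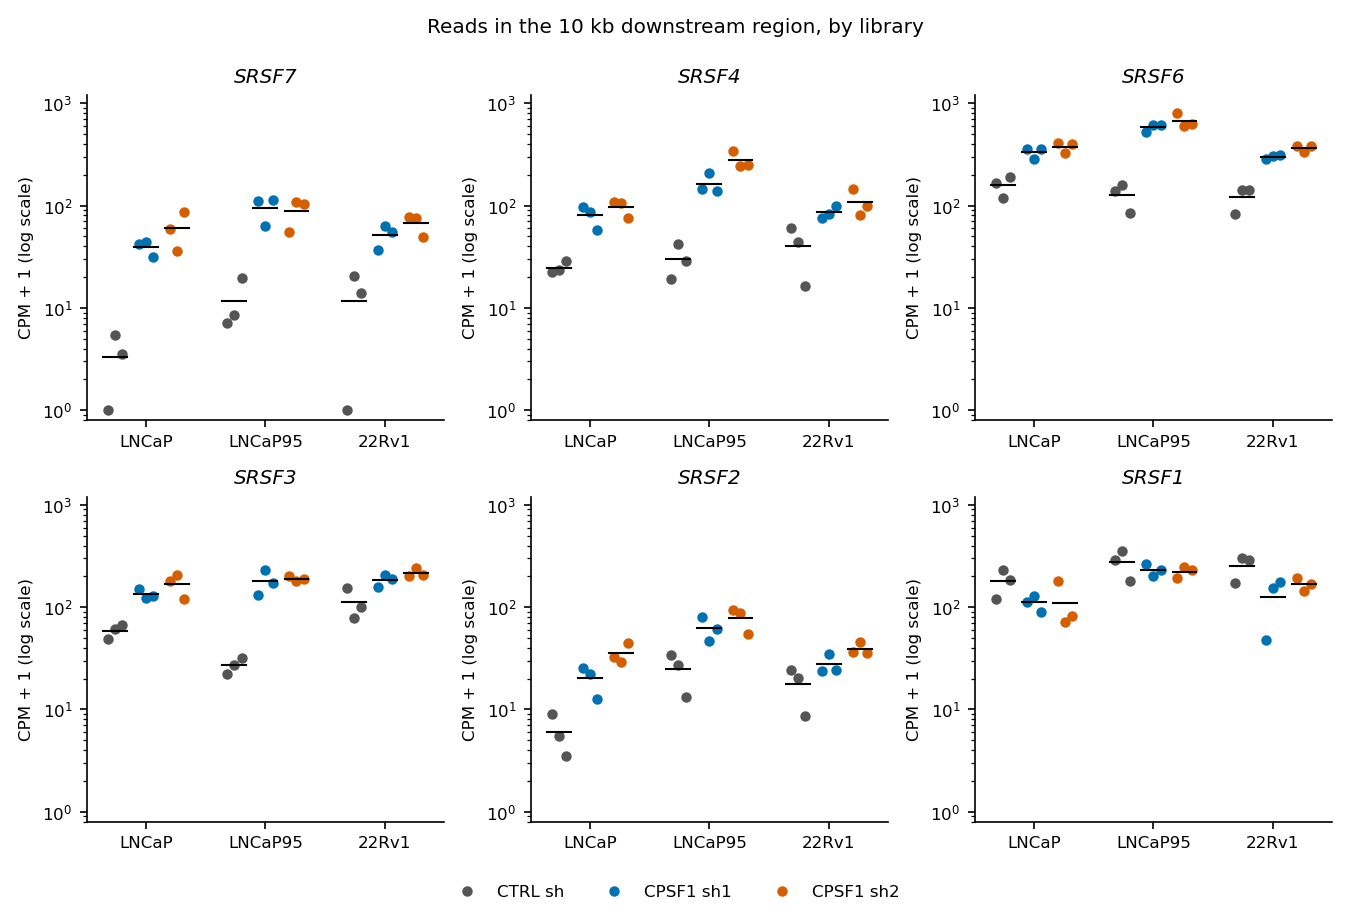
Counts in the 10 kb beyond the gene for SRSF7, SRSF4, SRSF6, SRSF3, SRSF2 and SRSF1, as CPM + 1 on a log axis, with 1 point per library and the groups CTRL sh, CPSF1 sh1 and CPSF1 sh2 in each line. Knockdown points of SRSF7, SRSF4, SRSF6 and SRSF3 lie above all 3 control points in every line, whereas those of SRSF1 overlap the controls.

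After CPSF1 knockdown, most calls among the SR genes were in the 10 kb beyond their 3′ ends. SRSF7, SRSF4 and SRSF6 rose there in all 3 lines, SRSF3 and SRSF2 rose in LNCaP and LNCaP95, and SRSF1 fell in LNCaP and 22Rv1, though not when all tables were scaled by the summed reads. Knockdown (6 libraries) was tested against control (3 libraries) in each line, and all 10 genes were tested. In LNCaP, 5 genes were called higher and 1 lower, where 9.52% of all genes tested were called higher and 5.2% lower. The counts were 5 higher and 0 lower in LNCaP95 (background 17.6% and 10.1%), and 3 higher and 1 lower in 22Rv1 (background 7.26% and 2.73%). The median log2 fold change of the 10 genes was 1.11, 1.29 and 0.84, beside 0.13, 0.22 and 0.19 over all genes tested.

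SRSF7 gave the largest fold changes, from control counts near 0. In LNCaP the controls held 0, 2 and 1 reads and the 6 knockdown libraries between 10 and 49. As CPM these were 0, 4.49 and 2.51 in control and 30.7, 41.9 and 85.6 (lowest, median and highest) after knockdown. No knockdown library came near the control range. The fitted log2 fold change was 3.94 (SE 0.67, adjusted p = 1.05e-06), a value that depends on the prior count, and the ratio of summed reads was 20.5 with a 95% counting interval of 6.87 to 100.7. In LNCaP95 the controls lay at 6.05, 7.51 and 18.4 CPM and the knockdown libraries at 54.4, 105 and 112, a log2 fold change of 2.72 (SE 0.50, adjusted p = 6.97e-06). In 22Rv1 they lay at 0, 19.5 and 12.9 CPM against 35.7, 57.8 and 75.5, a change of 1.95 (SE 0.50, adjusted p = 0.00358). The rise was thus seen without overlap in every line. Its 10 kb region (chr2:38960442-38970441) holds no exon of another gene on the same strand in the newer annotation. The share of SRSF7 reads beyond the gene stayed small, going from 0.167% to 2.48% with sh1 and 5.10% with sh2 in LNCaP.

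SRSF6, which shares the paired RNA recognition domains of SRSF4, had the most 10 kb reads of the family, 4220 over the 27 libraries. The controls were at 165, 117 and 190.4 CPM in LNCaP, and the knockdown libraries at 284, 358 and 409.9 (lowest, median and highest). Control and knockdown did not overlap in LNCaP95 either, at 139, 158 and 82.9 against 517, 611 and 796 CPM. The same held in 22Rv1, at 82.2, 140.2 and 141 against 282, 321 and 384 CPM. The log2 fold changes were 0.92 (SE 0.22, adjusted p = 0.000976), 1.97 (SE 0.28, adjusted p = 1.25e-08) and 1.11 (SE 0.23, adjusted p = 0.000196). Both shRNAs passed the test alone in every line, at 0.83 and 0.96, 1.92 and 2.04, and 1.04 and 1.31. As a share of the gene's own reads, ends beyond SRSF6 went from 12.4% to 23.2% ± 5.92 with sh1 and 33.6% ± 4.31 with sh2 in LNCaP. In LNCaP95 they went from 11.6% to 46.7% ± 3.71 and 53.7% ± 8.67, next to a 3′ UTR share of 47.3% and 41.3%. In 22Rv1 they went from 11.9% to 32.7% ± 2.29 and 35.8% ± 2.46. Ends on the exons of SRSF6 itself that the newer annotation places in this region were counted among them, and their part was not tested.

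SRSF4 10 kb counts in LNCaP were 21.3, 22.4 and 27.6 CPM in control and 57.1, 90.7 and 107 after knockdown. LNCaP95 had the widest gap, with controls of 18.1, 41.3 and 27.6 and knockdown values of 137, 226 and 337 CPM. In 22Rv1 the controls were spread from 15.4 to 58.7 CPM, still below the knockdown range of 75.2 to 144. The log2 fold changes were 1.58 (SE 0.37, adjusted p = 0.000528), 2.58 (SE 0.37, adjusted p = 1.68e-08) and 1.19 (SE 0.36, adjusted p = 0.0184). The 22Rv1 call was lost without sh2 replicate 1 or CTRL sh replicate 3, with log2 fold changes down to 0.73. With the shRNAs fitted alone in 22Rv1, sh2 passed for SRSF7 (2.20) and SRSF4 (1.42) and sh1 did not (1.81 and 1.07), and the difference between the shRNAs was not tested. A long noncoding RNA on the same strand covers 279 bases of this 10 kb region (chr1:29463956-29473955) in the newer annotation, and its part in the counts was not tested.

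For SRSF3, which couples splicing to export and to the choice of poly(A) site, the response differed by line. The controls were at 47.9, 60.6 and 65.1 CPM in LNCaP and the knockdown libraries at 119, 139 and 203 (here and for the next genes again the lowest, median and highest of 6). LNCaP95 started lowest, at 21.2, 26.3 and 30.7 CPM, and reached 131, 182 and 229. In 22Rv1 the controls were at 153, 77.9 and 100.2 CPM, so that the highest lay just under the lowest knockdown library (156, 202 and 239). The log2 fold changes were 1.09 (SE 0.28, adjusted p = 0.00228), 2.46 (SE 0.37, adjusted p = 7.58e-08) and 0.62 (SE 0.25, adjusted p = 0.0997). The response was smaller in 22Rv1 than in LNCaP95, with a log2 difference of -1.85 in a direct test of the line-by-knockdown term (adjusted p = 0.00374). CPSF1 itself changed by -0.73 in 22Rv1 and -1.05 in LNCaP95, and the part of knockdown depth in this difference was not tested. Already in the control cells, SRSF3 10 kb counts were lower in LNCaP95 than in LNCaP (-1.66, adjusted p = 0.0163) and higher in 22Rv1 than in LNCaP95 (2.13, adjusted p = 0.000199), where 5.77% and 15.3% of all genes differed. The first of these calls was lost in 4 of 9 fits with a library left out (LNCaP replicate 2 or 3, or LNCaP95 replicate 1 or 2), and the second in none. No other SR gene passed in the 10 kb table between control lines, including 22Rv1 against LNCaP (background 10.6%).

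SRSF2 rested on few reads. Its 10 kb region lies in pieces (chr17:74720140-74721549, 74721937-74722429 and 74722866-74729897). In the newer annotation, 17 bases of it are exon of the protein-coding gene JMJD6 on the same strand. The part of JMJD6 transcripts in the counts was not tested. The LNCaP controls held 3, 2 and 1 reads (7.99, 4.49 and 2.51 CPM), and the knockdown libraries lay at 11.7, 26.3 and 43.7 CPM. The groups were separate in LNCaP and in LNCaP95 (33.3, 26.3 and 12.3 against 45.3, 69.9 and 93.3) and overlapped in 22Rv1 (23.5, 19.5 and 7.71 against 22.6, 34.4 and 44.3). The log2 fold changes were 2.12 (SE 0.68, adjusted p = 0.0193), 1.18 (SE 0.44, adjusted p = 0.0336) and 0.79 (adjusted p = 0.388). The LNCaP call was lost in 3 of 9 fits with a library left out (CTRL sh replicate 2, CTRL sh replicate 3 or sh2 replicate 3) and the LNCaP95 call in 5 of 9 (CTRL sh replicate 2 or 3, sh1 replicate 1, or sh2 replicate 1 or 2).

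SRSF1 fell relative to the other 10 kb regions in LNCaP and 22Rv1. The LNCaP controls were at 119.8, 229 and 183 CPM, the LNCaP95 controls at 287, 353 and 178 CPM and the 22Rv1 controls at 170.3, 304 and 288 CPM. The LNCaP knockdown libraries were at 70.1, 101 and 179 CPM, those of LNCaP95 at 192, 228 and 262 CPM and those of 22Rv1 at 47.0, 160.2 and 192 CPM. The groups overlapped in every line, with the knockdown medians below the control medians. The log2 fold changes were -0.96 (SE 0.24, adjusted p = 0.00182), -0.60 (SE 0.26, adjusted p = 0.0697) and -1.12 (SE 0.23, adjusted p = 0.000163), and the LNCaP call was lost without CTRL sh replicate 2. These values depended on the scale. The 10 kb table as a whole took 3.48% to 4.98% of reads in control libraries and 5.10% to 7.40% after knockdown, and scaling all tables by the summed reads raised the median 10 kb fold change of all genes to 0.62, 1.11 and 0.73. On that scale SRSF1 was at -0.47, 0.32 and -0.55, the sign turned in LNCaP95 and no line passed, while its distance from the median of all genes stayed at -1.09, -0.79 and -1.27. The share of 10 kb calls that were higher went from 64.7%, 63.4% and 72.6% to 94.3%, 95.6% and 97.9%. The share of SRSF1 reads beyond the gene went from 9.06% to 4.70% and 5.83% in LNCaP, from 12.8% to 10.6% and 11.2% in LNCaP95, and from 8.67% to 5.09% and 6.79% in 22Rv1. The newer annotation holds exons of the gene itself in the SRSF1 region, as it does in those of SRSF6 and SRSF10. The part of those ends in the results was not tested.

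The other 4 genes passed the 10 kb test in no line on the scale of the 10 kb table, and their fitted values are given without a call. SRSF5, like SRSF4 and SRSF6 in domain structure, had log2 fold changes of 0.26, 1.39 and 1.08 on 0 to 10 control reads a library. SRSF10 was at 1.14, 0.69 and 0.90, and its LNCaP groups of 3 and 21 reads gave a ratio of 3.12 with a 95% interval of 0.932 to 16.3. SRSF11 was at 1.17, 0.51 and 0.04, with the LNCaP groups separate at 2.24 to 10.7 CPM against 16.1 to 35.0. TRA2A was at -0.30, 0.72 and 0.33, with overlap in every line. With all tables scaled by the summed reads, SRSF5 (2.29, adjusted p = 0.00433), SRSF11 (1.42, adjusted p = 0.0141) and TRA2A (1.64, adjusted p = 0.000336) passed in LNCaP95 and SRSF5 in 22Rv1 (1.66, adjusted p = 0.0236), and TRA2A in LNCaP turned to 0.21. Without TMM factors, SRSF5 and TRA2A passed in LNCaP95 (adjusted p = 0.0356 and 0.0138). All 6 knockdown libraries lay above all 3 controls for 6 genes in LNCaP, 5 in LNCaP95 and 4 in 22Rv1, where this held for 13.3%, 21.6% and 15.4% of all genes tested.

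The ratio of 10 kb to 3′ UTR ends of the same gene was tested next, to ask whether 10 kb ends moved apart from the gene's level. SRSF7 and SRSF6 passed in all 3 lines and SRSF4 in LNCaP and LNCaP95. In LNCaP, 3 of the 10 genes were called higher and 1 lower, where 8.39% and 1.95% of all genes were. LNCaP95 had 4 higher and 1 lower (background 21.2% and 6.82%), and 22Rv1 had 2 higher and 1 lower (background 6.65% and 0.803%). The log2 change of the ratio was 3.78, 2.61 and 2.07 for SRSF7 (adjusted p = 0.000346, 0.000195 and 0.0068), and 0.98, 1.957 and 1.24 for SRSF6 (adjusted p = 0.0384, 2.8e-05 and 0.00673). The SRSF6 call in LNCaP was lost in 7 of 9 fits with a library left out, and that of SRSF7 in 22Rv1 without CTRL sh replicate 3. SRSF4 was at 1.90, 2.90 and 1.16 (adjusted p = 0.00131, 2.7e-06 and 0.07). SRSF3 passed in LNCaP95, with 2.23 (adjusted p = 5.73e-05), but not in LNCaP (0.59, adjusted p = 0.276) or 22Rv1 (0.63, adjusted p = 0.194). The SRSF2 ratio passed in no line, at 1.41, 0.58 and 0.90 (adjusted p = 0.182, 0.374 and 0.27). SRSF1 was called lower in every line, at -1.32, -1.29 and -1.20 (adjusted p = 0.00512, 0.00273 and 0.0114), and with the summed scaling its values were -0.85, -0.27 and -0.57 and passed in none. The SRSF1 call in LNCaP was lost without CTRL sh replicate 2 and that in 22Rv1 without CTRL sh replicate 2 or 3.

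**Figure D4:**
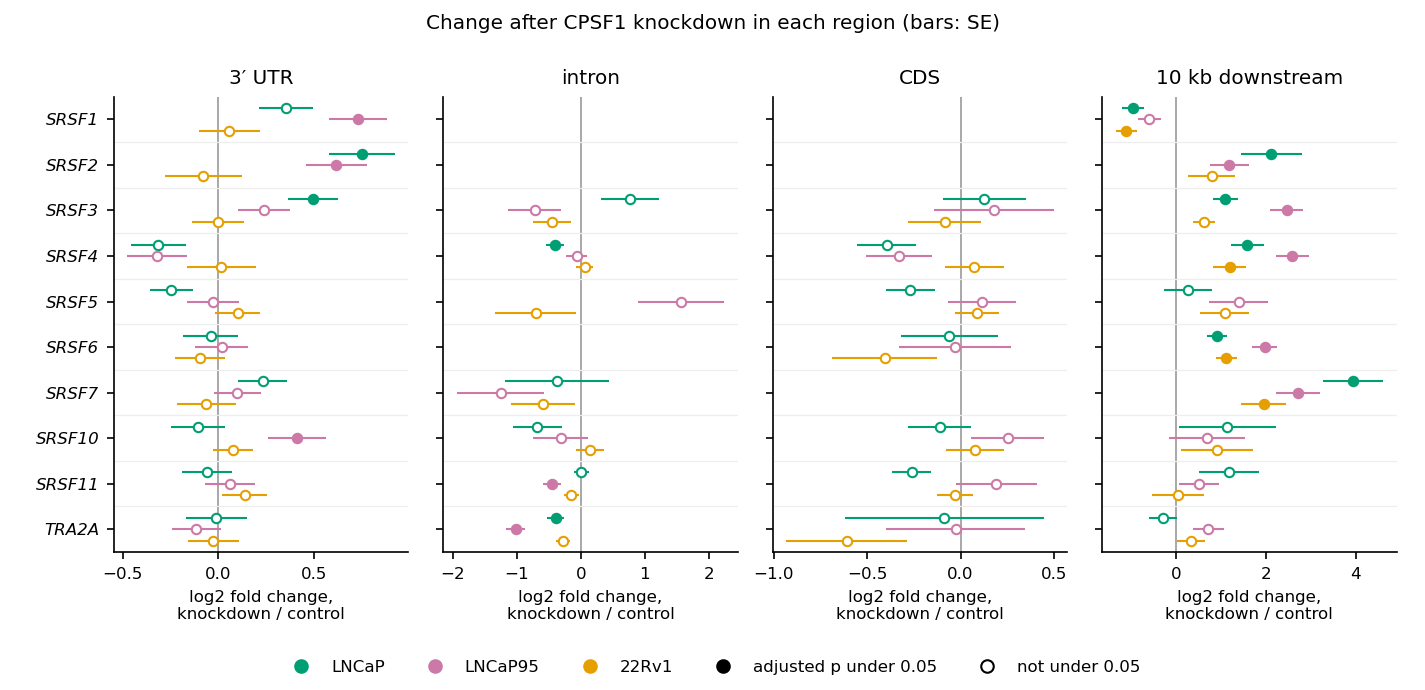
Log2 fold change after CPSF1 knockdown (point) ± SE (line) of each SR gene in the 10 kb, 3′ UTR, intron and CDS tables, with 1 colour per line and filled points for adjusted p under 0.05. Most filled points lie to the right of 0 in the 10 kb panel, those of SRSF1 lie to the left, and the CDS panel has none.

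In the 3′ UTR, SRSF2 rose in LNCaP and LNCaP95, SRSF3 rose in LNCaP, and SRSF1 and SRSF10 rose in LNCaP95, whereas no member passed the test in 22Rv1. Of the 10 genes, 2 were called higher and 0 lower in LNCaP, LNCaP95 had 3 higher and 0 lower, and 22Rv1 had 0 calls by edgeR and by DESeq2, with 0 at an unadjusted p under 0.05. The background of genes called higher was 8.24%, 15.2% and 0.678%, and that of genes called lower 10.1%, 15.2% and 0.791%. The median change of the 10 genes was -0.03, 0.08 and 0.01, beside 0.02, 0.01 and -0.01 over all genes tested. SRSF2 in LNCaP was at 77.5, 117 and 92.6 CPM in control and 126, 172 and 236 after knockdown, without overlap, a log2 fold change of 0.75 (SE 0.17, adjusted p = 0.00501). In LNCaP95 it was at 90, 114 and 108 against 114, 179.8 and 211 CPM, with the lowest knockdown library beside the highest control, a change of 0.62 (SE 0.16, adjusted p = 0.00758) that was lost without CTRL sh replicate 1.

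SRSF1 in LNCaP95 was at 104, 124 and 112 CPM in control and 151, 209.8 and 241 after knockdown. The groups did not overlap, and the log2 fold change was 0.73 (SE 0.15, adjusted p = 0.00138). In LNCaP and 22Rv1 it was 0.35 (adjusted p = 0.0863) and 0.06 (adjusted p = 0.915). The difference between 22Rv1 and LNCaP95 in this response was -0.66 (adjusted p = 0.0436), and it was lost in 12 of 27 fits with a library left out. SRSF3 in LNCaP went from 129, 186 and 154 CPM to 209, 227 and 287, a change of 0.49 (SE 0.13, adjusted p = 0.0122) lost without CTRL sh replicate 1 or 3. SRSF10 in LNCaP95 went from 72.8, 68.6 and 94.5 to 89.6, 117 and 137 CPM, with overlap, and its change of 0.41 (SE 0.15, adjusted p = 0.05 after rounding, just under the threshold) was lost in 7 of 9 fits with a library left out. SRSF5 in LNCaP was at 290 to 302 CPM in control and 254 to 284 after knockdown. Those groups did not overlap, but the change of -0.25 had an adjusted p of 0.134, and it was -0.03 in LNCaP95 and 0.10 in 22Rv1. The 3′ UTR changes of SRSF4, SRSF6, SRSF7, SRSF11 and TRA2A lay between -0.32 and 0.23 in all lines, without a call.

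**Figure D5:**
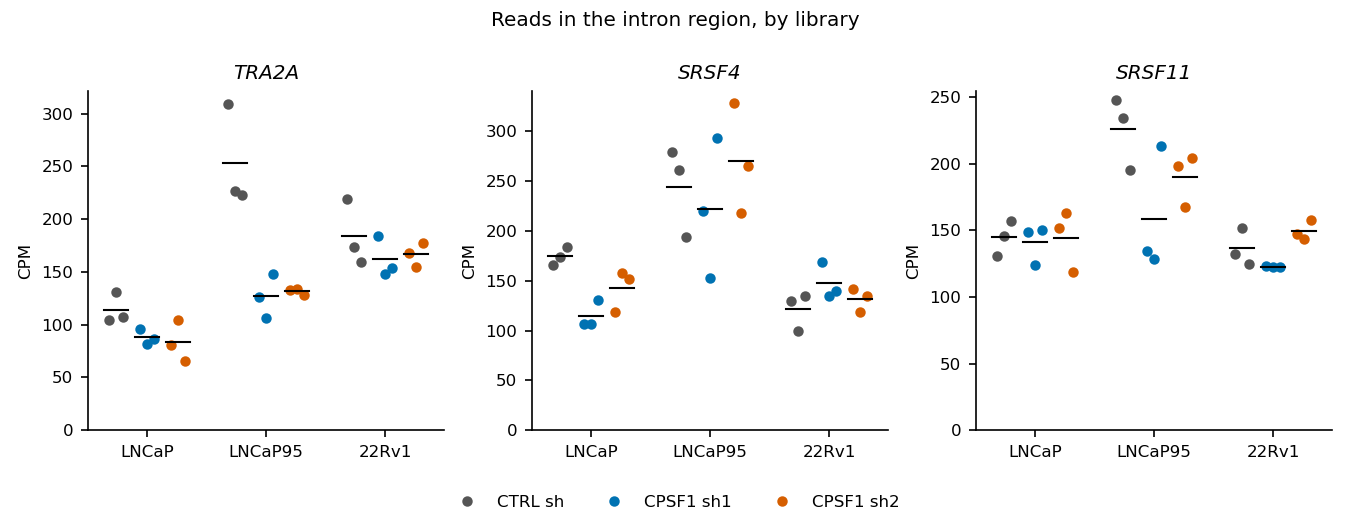
Intron counts of TRA2A, SRSF4 and SRSF11 in CPM, with 1 point per library and the groups CTRL sh, CPSF1 sh1 and CPSF1 sh2 in each line. TRA2A knockdown points lie below all controls in LNCaP and LNCaP95 and overlap them in 22Rv1.

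The calls for intron ends of the SR genes were all falls. TRA2A fell in LNCaP and LNCaP95, SRSF4 in LNCaP and SRSF11 in LNCaP95, and none was called higher. Of the genes tested, 6 in LNCaP and 7 in each other line, 2, 2 and 0 were called lower, where 5.62%, 10.8% and 1.75% of all genes were, and 0 were called higher, where 8.7%, 13% and 2.62% were. SRSF1, SRSF2 and SRSF6 did not reach the mean of 2 CPM needed for the test in any line, nor SRSF5 in LNCaP. In LNCaP95, SRSF5 introns had a log2 fold change of 1.57 (adjusted p = 0.0902), on 1 to 4 control and 3 to 11 knockdown reads a library. The ratio of intron to 3′ UTR ends of SRSF5 changed there by 1.61 (adjusted p = 0.0504). In 22Rv1, 1 gene had an unadjusted p under 0.05 and DESeq2 called 0. TRA2A in LNCaP95 was at 309, 227 and 223 CPM in control and 107, 131 and 148 after knockdown. Every knockdown library was below every control, the log2 fold change was -1.02 (SE 0.14, adjusted p = 5.14e-06), and both shRNAs passed alone (-0.96 and -1.07). In LNCaP it went from 105, 131 and 107 to 65.3, 84.1 and 104 CPM, again without overlap, by a log2 fold change of -0.39 (SE 0.13, adjusted p = 0.0468) that was lost in 7 of 9 fits with a library left out. In 22Rv1 the groups overlapped, at 219, 173 and 159 against 148, 161 and 184 CPM, and the change was -0.28 (SE 0.11, adjusted p = 0.176).

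The TRA2A response differed between lines in direct tests, by -0.58 for LNCaP95 against LNCaP (adjusted p = 0.0315) and by 0.76 for 22Rv1 against LNCaP95 (adjusted p = 0.00305). As a share of TRA2A reads, introns went from 37.1% in LNCaP95 controls to 22.7% ± 1.07 with sh1 and 23.8% ± 3.40 with sh2, next to 26.2% to 19.4% and 17.6% in LNCaP. The intron share of the LNCaP95 knockdown cells was near that of the LNCaP controls. The ratio of intron to 3′ UTR ends fell with knockdown in LNCaP95 for TRA2A (-0.90, SE 0.21, adjusted p = 0.00605) and SRSF3 (-0.97, SE 0.33, adjusted p = 0.0477), 2 of the 7 genes tested, where 14.1% of all genes were called in either direction. The TRA2A call was lost without CTRL sh replicate 1. That of SRSF3 was lost in 7 of 9 fits with a library left out, with either shRNA alone (adjusted p = 0.129 and 0.15) and by DESeq2 (adjusted p = 0.107). In LNCaP and 22Rv1, 0 SR genes passed this ratio test by edgeR or by DESeq2, with 0 at an unadjusted p under 0.05, and 3.69% and 0.422% of all genes were called.

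SRSF4 introns in LNCaP went from 166, 174 and 184 CPM to 107, 125 and 157. The groups did not overlap, but the change of -0.41 (SE 0.14, adjusted p = 0.0441) was lost in 7 of 9 fits with a library left out. It was -0.06 in LNCaP95 and 0.06 in 22Rv1. The LNCaP call was lost without TMM factors (adjusted p = 0.089) and kept with summed library sizes (0.00692). SRSF4 changed by -0.31 in the 3′ UTR and -0.40 in the CDS of LNCaP, without a call. Its ratio of intron to 3′ UTR ends there changed by -0.10 (adjusted p = 0.849). SRSF11 introns in LNCaP95 went from 248, 234 and 195 to 129, 183 and 213 CPM, with overlap, a change of -0.45 (SE 0.14, adjusted p = 0.0239) that was lost without CTRL sh replicate 1, CTRL sh replicate 2 or sh1 replicate 1. The lowest share of SRSF11 reads in introns, 1.68%, was that of the LNCaP95 sh1 replicate 2, which also had the highest CDS share of all libraries (20.1% of its reads, against 13.0% to 18.6% elsewhere).

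CDS ends of the SR genes gave no call. Of the 7 genes tested in each line, 0 passed by edgeR or by DESeq2, with 2, 0 and 0 at an unadjusted p under 0.05, where 7.1%, 12.5% and 1.01% of all genes were called. SRSF1, SRSF2 and SRSF7 were too low to be tested, with 9, 0 and 4 CDS reads over the 27 libraries. SRSF11 in LNCaP was at 5248, 5852 and 5467 CPM in control and 4255, 4739 and 4957 after knockdown. Every knockdown library was below every control, but the log2 fold change of -0.26 (SE 0.11) had an adjusted p of 0.152. In LNCaP95 and 22Rv1 the groups overlapped, at 5438 to 5682 against 5066 to 8053 CPM and at 4134 to 4774 against 4256 to 4719 CPM. SRSF4 in LNCaP95 was at 497 to 539 CPM in control and 323 to 450.1 after knockdown, a change of -0.33 (adjusted p = 0.246). The ratio of CDS to 3′ UTR ends passed for 0 of these genes in any line by edgeR or by DESeq2, with 0 at an unadjusted p under 0.05 in each and a background of 0.132%, 0.784% and 0.0218%.

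Differences between lines in the knockdown response were called for 4 of the tests of SR genes, in SRSF1 (3′ UTR), TRA2A (introns, 2 pairs) and SRSF3 (10 kb). The 3′ UTR change of CPSF1 itself was -1.19, -1.05 and -0.73 in LNCaP, LNCaP95 and 22Rv1. The part of knockdown depth in the differences between lines was not tested. Among 3′ UTR responses, 1 of 10 genes passed for 22Rv1 against LNCaP95 and 0 in the other pairs, where 9.58%, 5.11% and 10.7% of all genes passed for LNCaP95 against LNCaP, 22Rv1 against LNCaP and 22Rv1 against LNCaP95. In the same order of pairs, 1, 0 and 1 of 7 genes passed in introns (background 8.1%, 3.77% and 9.1%) and 0, 0 and 1 of 10 in the 10 kb table (background 2.48%, 1% and 4.15%). CDS responses passed for 0 of 7 genes in every pair by edgeR and by DESeq2 (background 3.84%, 0.532% and 4.77%), with 1, 0 and 0 genes at an unadjusted p under 0.05. For the rises of SRSF7, SRSF4 and SRSF6 beyond the gene, no pair of lines passed by edgeR, and the difference nearest to the threshold was that of SRSF6 between LNCaP95 and LNCaP (1.09, adjusted p = 0.0502). That difference passed by DESeq2 (adjusted p = 0.00797), without TMM factors (0.0318) and with summed library sizes (0.00366). SRSF6 in 22Rv1 against LNCaP95 passed by DESeq2 (adjusted p = 0.0263) and with summed sizes (0.0261), and SRSF4 in the same pair with summed sizes (0.0402), while SRSF7 passed in no pair under any of these settings.

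Summed over the 10 genes, ends beyond the gene went from 1.39%, 1.06% and 1.53% of reads in control to 2.66% (sh1) and 3.53% (sh2) in LNCaP, to 3.40% and 5.14% for LNCaP95 and to 2.63% and 3.34% for 22Rv1. Because SRSF11 CDS reads make up so much of this sum, the shares without SRSF11 were 2.72%, 1.94% and 2.6% in control and 4.36% and 6.28%, 6.80% and 9.21%, and 4.54% and 5.35% after knockdown. Over all genes the 10 kb share went from 4.88%, 3.62% and 4.66% to 5.80% and 6.75%, 5.45% and 6.57%, and 5.56% and 6.17%.

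Genes that work with the SR proteins were counted in the same fits. Of the other SR proteins (SRSF8, SRSF9, SRSF12 and TRA2B), 0 of 2, 2 and 3 tested passed in the 3′ UTR in LNCaP, LNCaP95 and 22Rv1, with a median log2 fold change of 0.26, 0.15 and 0.21. In the 10 kb table, 1 of 3 tested rose in 22Rv1 (background 7.26%) and none passed in LNCaP or LNCaP95. The 10 kb medians were 1.18, 0.68 and 0.07. In introns, 1 of 3 tested fell in LNCaP95 (background 10.8%), where the median was -0.86. Of 9 genes for the kinases that phosphorylate SR proteins and for their nuclear importer, 8, 8 and 9 were tested in the 3′ UTR. Among them 1 rose and 2 fell in LNCaP (background 8.24% higher and 10.1% lower), 1 rose and 3 fell in LNCaP95 (15.2% and 15.2%), and none passed in 22Rv1 (0.678% and 0.791%). CLK2, a kinase that phosphorylates SR proteins in nuclear speckles, was at 75 ± 3.07 CPM in LNCaP controls and 44.8 ± 11.4 after knockdown, a log2 fold change of -0.86 (adjusted p = 0.00291), and it also fell in LNCaP95 (-0.81, adjusted p = 0.00194). In 22Rv1 it was at 0.48 (adjusted p = 0.163). CLK3, of the same kinase family, fell in LNCaP and LNCaP95 with log2 fold changes of -0.53 and -0.99 (adjusted p = 0.0216 and 8.27e-05).

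Of 16 SR-related proteins and early spliceosome partners, 15 were tested in the 3′ UTR, where 1 rose in LNCaP, 2 rose and 2 fell in LNCaP95, and none passed in 22Rv1, against the same background. U2AF1, the small subunit of the factor that recognises the 3′ splice site, went from 199 ± 16.2 to 286 ± 21.6 CPM in LNCaP (log2 fold change 0.42, adjusted p = 0.0278) and from 225 ± 13.3 to 367 ± 37.5 in LNCaP95 (0.56, adjusted p = 0.00361). In the introns of this list, of 14 tested, 1 gene fell in LNCaP (background 5.62% lower), 2 fell in LNCaP95 (10.8%) and none rose. RBM39, an SR-related splicing factor, showed the fall in both lines, from 94.3 ± 15.4 to 68.5 ± 8.72 CPM in LNCaP (-0.42, adjusted p = 0.035) and from 107 ± 11.1 to 63.0 ± 8.85 in LNCaP95 (-0.83, adjusted p = 9.1e-05). In 22Rv1 it was at -0.12 (adjusted p = 0.731). In the 10 kb table, 2 genes of the list rose and 1 fell in LNCaP, 6 rose and 3 fell in LNCaP95, and 1 rose in 22Rv1, of 15 tested, against a background of 9.52% higher and 5.2% lower for LNCaP, 17.6% and 10.1% for LNCaP95, and 7.26% and 2.73% for 22Rv1. Of 10 factors of nonsense-mediated decay, the pathway that removes poison-exon products, none passed in the 3′ UTR in LNCaP or 22Rv1, and 2 rose and 1 fell in LNCaP95, where 15.2% of all genes rose and 15.2% fell. Against the 10 kb background above, of 8 decay factors tested, 1 rose in LNCaP, 2 rose and 2 fell in LNCaP95, and 1 rose in 22Rv1. Of 7 kinase and importer genes tested there, 1 fell in LNCaP, 2 rose and 2 fell in LNCaP95, and 1 fell in 22Rv1. In introns, 1 of 9 decay factors rose in LNCaP95 (background 13%) and 1 of 8 kinase and importer genes fell in LNCaP (5.62%).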

How the data were processed

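The 4 tables deposited by the authors (3′ UTR, intron, CDS and 10 kb downstream) hold raw counts of reads for each gene and library, not normalized. Per the study's methods and processing notes, poly(A) stretches were trimmed with the DPAC pipeline, reads were mapped to hg19 with HISAT2 2.1.0, and 3′-most bases were counted by strand with featureCounts (Subread 2.0.3 in the processing notes, another version in the methods) over Ensembl regions, leaving out retained-intron transcripts. Whether the A-rich site filter acted on these tables is not given in the sources used here. The methods call the 3 libraries of a group biological replicates. No 2 libraries were identical, and the columns of other samples numbered 0.

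Counts were tested over all genes with the edgeR 4.0.16 quasi-likelihood F-test in R 4.3.3, after the study's grouping (6 knockdown against 3 control libraries in each line). Library sizes and TMM factors were taken from the table tested, genes needed a mean above 2 CPM, and Benjamini-Hochberg adjusted p under 0.05 was called. Adjusted p-values in the report come from these fits. Printed CPM values are unscaled by TMM, so their ratios can differ from fitted fold changes. Ratios used library, region and region-by-knockdown terms, and line differences used line-by-knockdown terms over 27 libraries. Alternatives were DESeq2 1.42.0, no filter, no TMM factors, summed library sizes with 3′ UTR factors, each shRNA alone, a replicate block and each library left out. The scripts were tested on simulated data. Intervals and floors cover counting error only.

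The members, the companion lists and the tests were chosen with earlier results of these data known. The rule for naming took all 10 SR genes, CPSF1, and from each companion list the 2 genes with the largest mean absolute change in the 3′ UTR and the 2 in the intron table among those called in at least 2 lines with 1 sign. Same-numbered libraries did not deviate together throughout (correlations from -0.28 to 0.42, at most 3 of 9 pairs in a line and table over 0.1, and those 3 in the 22Rv1 3′ UTR table all between CTRL sh and sh1), so the replicate number was not used as a block. A sequence was left out and is not reported here.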

Additional observations from a re-analysis of the deposited data

Results flagged for a closer look

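Line-by-knockdown terms that passed the test are given here as values; each compares the knockdown response of 2 lines directly in the edgeR fit over 27 libraries. The SRSF1 3′ UTR response was lower in 22Rv1 than in LNCaP95 by a log2 difference of -0.66 (adjusted p = 0.0436), and it lost the call with a replicate block (adjusted p = 0.0599), without a filter (0.0668) and with summed library sizes (0.0818). The TRA2A intron response was more negative in LNCaP95 than in LNCaP by -0.58 (adjusted p = 0.0315), and it lost the call without TMM factors (adjusted p = 0.18), without a filter (0.0717) and with summed library sizes (0.388), as well as in 5 of 27 fits with a library left out. The TRA2A intron response was less negative in 22Rv1 than in LNCaP95 by 0.76 (adjusted p = 0.00305), with adjusted p between 0.000336 and 0.0202 over the alternative settings, and it was kept in 27 of 27 fits with a library left out. The SRSF3 10 kb response was smaller in 22Rv1 than in LNCaP95, with a log2 difference of -1.85 (adjusted p = 0.00374), with adjusted p between 0.000594 and 0.00774 over the alternative settings, and it too was kept in 27 of 27. The control levels of SRSF3 in the 10 kb table and of TRA2A in introns also differed between lines, and their part in the difference of the responses was not tested. CPSF1 itself changed by -1.19, -1.05 and -0.73 in LNCaP, LNCaP95 and 22Rv1, and the part of knockdown depth was not tested either.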

How the results depend on the processing

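Calls are counted over the 10 SR genes and the 3 lines or pairs of lines. No called value changed sign under any alternative run. The 10 kb calls after knockdown numbered 15, with 11 for sh1 alone, 16 for sh2 alone, 16 by DESeq2, 18 without TMM factors, 18 with summed library sizes, 15 without a filter and 13 to 16 with a library left out. The 5 calls in the 3′ UTR were 3 to 7 with a library left out, and the 4 in introns were 2 for sh1, 1 for sh2, 1 without TMM factors and 2 to 4 with a library left out. The 0 CDS calls became 1 for sh1, 1 for sh2 and 0 to 1 with a library left out. The 2 intron ratio calls became 0 for sh1, 1 for sh2, 1 by DESeq2, 1 without a filter, 1 with summed sizes and 1 to 2 with a library left out, and the 12 calls of the 10 kb ratio were 8 for sh1, 18 with summed sizes and 10 to 13 with a library left out. Between control lines, the 3′ UTR calls (16) were 14 to 21, the intron calls (7) 6 to 8 and the CDS calls (7) 6 to 8 with a library left out, and introns and CDS each had 9 without TMM factors. Also between control lines, the 10 kb calls (2) were 1 without TMM factors and 1 to 2 with a library left out, the 2 intron ratio calls 1 by DESeq2, 3 without a filter, 0 with summed sizes and 0 to 4 with a library left out, and the 0 calls of the 10 kb ratio 0 to 1. Line-by-knockdown calls were 1 in the 3′ UTR (2 by DESeq2, 0 without a filter, 0 with summed sizes, 0 to 3 with a library left out), 2 in introns (1 without TMM factors, 1 without a filter, 1 to 3) and 1 in the 10 kb table (4 by DESeq2, 2 without TMM factors, 5 with summed sizes, 1 to 3). With the replicate number as a block, calls after knockdown were 4 in the 3′ UTR, 2 in introns, 1 in the intron ratio, 15 in the 10 kb table and 11 in its ratio, and 0 line-by-knockdown calls were left in the 3′ UTR. The block took away the intron calls of SRSF4 and TRA2A in LNCaP (adjusted p = 0.053 and 0.0581) and that of SRSF10 in the LNCaP95 3′ UTR (0.0628). The cause of these changes was not tested. DESeq2 alone called SRSF1 lower in the LNCaP95 10 kb table (-0.66, adjusted p = 0.0214). Control libraries with under 10 reads limit SRSF2, SRSF4, SRSF5, SRSF7, SRSF10 and SRSF11 beyond the gene in every line, and SRSF3 and TRA2A in LNCaP95.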
